A study of Mus musculus with 6 samples.

Results

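The genes described here encode 4 families of axon guidance cues and their receptors: the ephrins with the Eph receptors, the Slits with the Robo receptors, the netrins with DCC and the UNC5 receptors, and the membrane-bound netrin-G proteins. They were picked by a rule on gene symbols, set with earlier results of these data known. Of the 55416 genes in the deposited table, 40 met that rule: 9 EphA and 5 EphB receptors, 5 ephrin-A and 3 ephrin-B genes, 3 Slits, 4 Robos, 4 netrins, 2 netrin-G genes, and Dcc with Unc5a to Unc5d. Total RNA had been sequenced from mouse ganglionic eminences, the ventral forebrain swellings that give rise to striatal neurons and cortical interneurons, at E13.5 (embryonic day). One group was 3 libraries of embryos lacking both Dlx1 and Dlx2, homeobox genes required for the maturation of these neurons, and the other was 3 libraries of their wild-type littermates. Strain, the nature of the Dlx alleles and the number of embryos behind each library were not given in the sources used here, so the p-values measure the spread between these libraries. No drug or other agent is named for either group.

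Growth cones and migrating neurons read these cues as attraction or repulsion. Slit proteins bind Robo1 and Robo2 and repel the cells that carry them, whereas the diverged receptor Robo3 is best known for letting commissural axons approach and cross the midline. Netrin-1 attracts through DCC and repels when UNC5 receptors take part. Ephrins are tethered to the membrane, ephrin-A by a lipid anchor and ephrin-B by a transmembrane segment, and signal through Eph receptor tyrosine kinases on contact. In the embryonic telencephalon these systems are known for steering interneurons around the striatum, for sorting striatal cells into compartments and for guiding the thalamocortical and corticofugal axons that cross the ganglionic eminences.

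Total counts were between 56618090 and 70114173 per library. Levels are given as CPM, the standard depth-scaled read count, after TMM scaling of library sizes. A count of 3, the limit that a count of 0 allows, corresponded to 0.0432 to 0.0520 CPM, which covers counting error only. Dlx1 was at 434.0 to 445.7 CPM in wild-type libraries and 74.9 to 94.0 CPM in double knockout libraries, and Dlx2 at 281.8 to 313.3 and 7.50 to 11.0 CPM, so no library went against its label. Xist was high in double knockout replicate 1 and in replicates 2 and 3 of the wild type, and Y-linked reads were present in the other libraries, so both patterns occurred in both genotypes. Of 9 marker lists for the cells that the dissection could hold, those of endothelium, pericytes, meninges, microglia and blood had summed levels that overlapped between the genotypes, and no marker of these lists was past the threshold. The summed markers of GABAergic neurons were at 482.2 to 482.8 CPM in wild-type libraries and 169.2 to 178.0 CPM in double knockout libraries, with all 3 called lower. The summed dorsal telencephalic markers were at 626.5 to 642.6 and 490.5 to 507.0 CPM, with none of 5 called. All 5 were nonetheless lower without overlap between the genotypes, as were 10.2% of all tested genes. Their unadjusted p in edgeR's quasi-likelihood test was 0.00427 to 0.0126, where 13.3% of all tested genes had one under 0.05. The diencephalic markers were at 80.1 to 95.7 and 195.5 to 242.6 CPM, where 1 of 4, Otp, was called higher. The ganglionic eminence progenitor markers summed to 1035 to 1137 CPM and 517.3 to 686.2 CPM, but that list holds Dlx1 and Dlx2 themselves, and its Gsx2 and Nkx2-1 were called higher. No listed marker was at 0 in every library. These differences in marker level stand beside all the guidance results below, and their part in them was not tested. In bulk tissue, fewer cells of a type and less RNA per cell cannot be told apart.

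Of the 40 guidance genes, 39 passed the filter on low counts, and 9 passed the threshold of 0.05 for the adjusted p, with edgeR's quasi-likelihood test and Benjamini-Hochberg adjustment over all genes. Those 9 are 23.1% of the 39, where 2.68% of all 23628 tested genes were called. Higher in the double knockout were Slit2, Robo3, Unc5b, Dcc, Ntng1 and Efna5, and lower were Robo1, Robo2 and Epha5. In each direction 1.34% of all tested genes were called. An unadjusted p under 0.05 was found for 23 of the 39 guidance genes and for 13.3% of all tested genes. Most guidance genes are well expressed, and well expressed genes were called more often. Above a mean level of 10 CPM, a limit chosen after the data were seen, 8 of 29 guidance genes (27.6%) and 4.32% of all 10493 genes were called, 5 and 3 guidance genes being higher and lower against 2.15% and 2.16% of all. The median absolute log2 fold change was 0.273 over the 39 guidance genes and 0.127 over all tested genes. Their median signed change was -0.010, against -0.002 for all tested genes, with 19 of 39 values above 0. The libraries of the 2 genotypes did not overlap for 13 guidance genes that were higher and 8 that were lower in the double knockout. Over all tested genes 9.30% and 10.2% were without overlap in those directions. The 40 genes summed to 3917 ± 57.9 CPM in wild-type libraries and 3860 ± 29.5 CPM in double knockout libraries (SD, n = 3 each), with overlapping libraries.

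**Figure D1:**
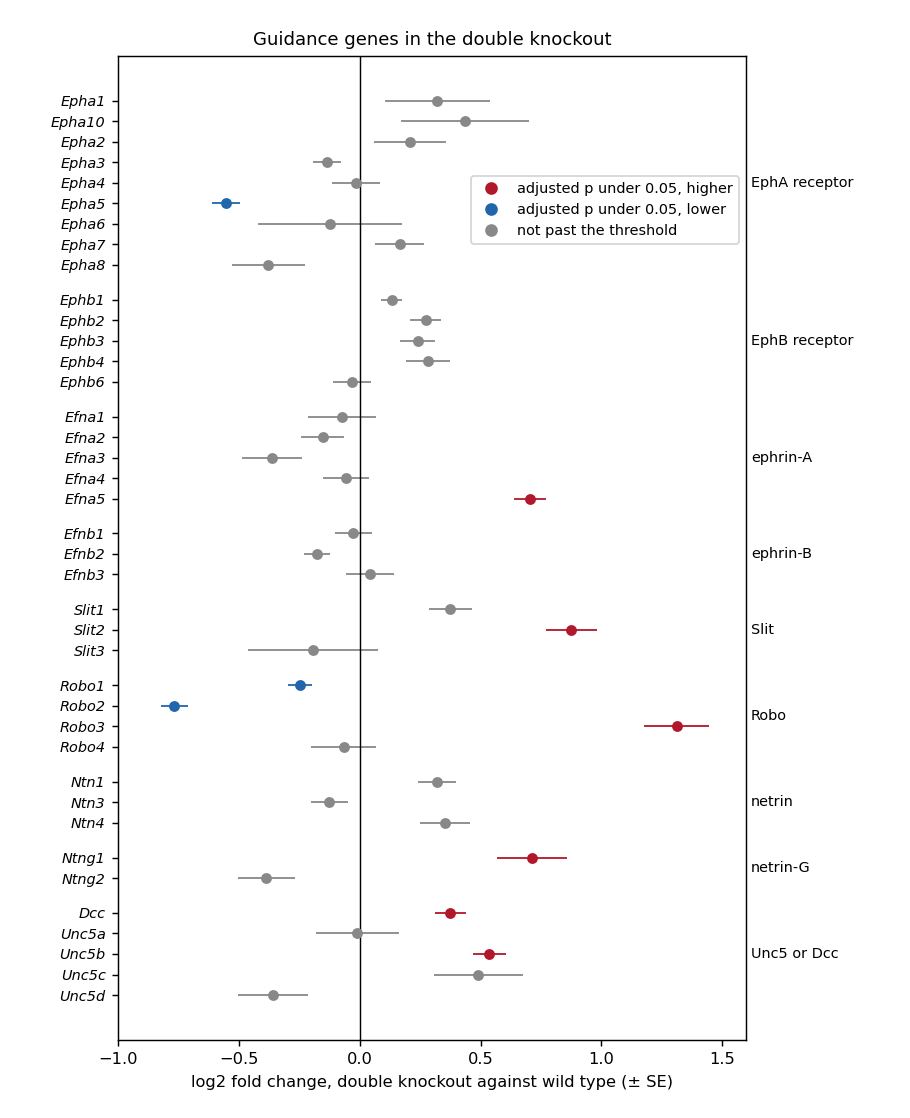
Log2 fold change of each tested guidance gene, double knockout against wild type, with its standard error, grouped by family (39 genes, 3 libraries per genotype). Robo3 lies furthest to the right at 1.31 and Robo2 furthest to the left at -0.77, and coloured points mark the 9 genes past the threshold.

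The widest split within a family was that of the Robo receptors, where 3 of 4 genes were called and not in the same direction. Robo3 (ENSMUSG00000032128) was at 10.9, 15.7 and 14.9 CPM in wild-type replicates 1 to 3 and at 31.4, 34.4 and 37.1 CPM in double knockout replicates 1 to 3. Its lowest double knockout library was thus above its highest wild-type library by more than the whole spread of either genotype. Robo3 rose 2.48-fold, with a log2 fold change of 1.31 ± 0.135 (SE, edgeR adjusted p = 0.00146). It was the only guidance gene that changed at least 2-fold. Robo2 (ENSMUSG00000052516), a main Slit receptor of forebrain neurons, was at 350.3, 325.6 and 324.3 CPM in wild-type libraries and 203.5, 186.1 and 197.8 CPM in double knockout libraries. The 2 sets of libraries were far apart, and Robo2 fell to 58.7% of the mean of its wild-type libraries, a log2 fold change of -0.77 ± 0.0572 (SE, edgeR adjusted p = 2.62e-04). Robo1 (ENSMUSG00000022883), the other main Slit receptor, was at 392.1, 377.0 and 392.4 CPM in wild-type libraries and 331.5, 322.4 and 324.2 CPM in double knockout libraries. Robo1 fell less, to 84.2%, with a log2 fold change of -0.25 ± 0.0494 (SE, edgeR adjusted p = 0.0373).

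The Robo1 libraries did not overlap, but its call was lost in 8 of 13 alternatives, the most of any of the 9. The edgeR adjusted p was 0.176, 0.0826 and 0.137 without wild-type replicates 1, 2 and 3, and 0.0939 and 0.160 without double knockout replicates 1 and 2. It was 0.0619 with total count scaling and 0.110 with Y-linked expression as a covariate, and the log2 fold change stayed between -0.27 and -0.22 over 13 alternatives. The calls of Robo2 and Robo3 held in all 13. Robo4, the Robo of blood vessel endothelium, was at 6.44 ± 0.916 CPM in wild-type libraries and 6.14 ± 0.576 CPM in double knockout libraries (SD, n = 3 each), with an edgeR adjusted p of 0.903. Its libraries overlapped, as did the endothelial marker sums of 108.8 to 127.1 and 115.5 to 135.0 CPM.

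Within each library the Robo genes were also set against each other. Such ratios and family sums, here and below, were chosen after the values had been seen and were not tested. For every 100 reads of Robo1 there were 89.4, 86.4 and 82.6 reads of Robo2 in the wild type and 61.4, 57.7 and 61.0 in the double knockout. Reads of Robo3 per 100 of Robo1 were 2.77, 4.16 and 3.79 in the wild type and 9.48, 10.7 and 11.4 in the double knockout. These are ratios of reads and are not adjusted for gene length, which is the same in both genotypes. Neither ratio overlapped between the genotypes. The reads of all 4 Robo genes together were lower in every double knockout library, at 548.8 to 572.2 CPM against 723.8 to 760.6 CPM, and Robo1 and Robo2 made up most of them.

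In the RefSeq annotation of mouse assembly GRCm38.p6, Robo1 and Robo2 are next to each other on chromosome 16 with no protein-coding gene between them, and Robo4 and Robo3 are next to each other on chromosome 9. The first pair shared its direction, and the second did not share a call. RefSeq promoters, here the 250 bases before and 50 after a transcription start, were found for 35 of the 40 guidance genes. They were searched on both strands for TAATTA and TAATTG, core motifs of the kind bound by DLX and many other homeodomain proteins, of which the first reads the same on both strands. A match in any listed promoter was found in 6 of these 35 genes (17.1%) and in 13.1% of the 20990 genes of the table with a promoter. Counted by promoter, 7 of 40 (17.5%) held a match, against 11.4% of the 25656 promoters of table genes. Among the called guidance genes, 4 of the 8 with a promoter held one, namely Robo2, Robo3, Epha5 and Ntng1, where 49 of the 445 called genes of the whole table with a promoter (11.0%) and 9.32% of all tested genes with one did. For Robo2 only the most upstream of its 3 listed promoters held a match, and which start is used in this tissue was not tested. The 2 uncalled genes with a match were Efna1 and Epha7. A match is a description of the letters and not evidence of binding, and these genes did not share a direction. The 250 bases before the start of Robo2 (the most upstream of its 3 listed starts, GRCm38.p6, chr16:75447294-75447543, minus strand) and of Robo3 (chr9:37433176-37433425, minus strand) are shown because these paralogues moved in opposite directions. Both read 5′ to 3′, with the matched motif in capitals.
Robo2: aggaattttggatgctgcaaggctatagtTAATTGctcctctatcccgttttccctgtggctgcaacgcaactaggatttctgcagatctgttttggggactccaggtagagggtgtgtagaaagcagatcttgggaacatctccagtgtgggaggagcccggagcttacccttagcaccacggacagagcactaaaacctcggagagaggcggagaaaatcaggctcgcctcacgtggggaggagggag
Robo3: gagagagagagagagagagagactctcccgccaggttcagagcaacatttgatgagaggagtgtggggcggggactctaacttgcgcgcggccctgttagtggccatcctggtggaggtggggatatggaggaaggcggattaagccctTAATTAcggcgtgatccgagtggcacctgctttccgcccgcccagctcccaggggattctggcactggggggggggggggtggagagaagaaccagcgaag
The Robo2 match is TAATTG and begins 221 bases before the start, and the Robo3 match is TAATTA and begins 101 bases before it.

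Among the Slits, the secreted ligands of these receptors, 1 of 3 was called, and it was higher. Slit2 (ENSMUSG00000031558), the Slit known for repelling forebrain axons from the ventral midline, was at 44.1, 40.9 and 48.3 CPM in wild-type libraries and 82.4, 92.6 and 69.8 CPM in double knockout libraries. All double knockout libraries were higher, although replicate 3 was lower than the other two. Slit2 rose 1.84-fold, with a log2 fold change of 0.88 ± 0.104 (SE, edgeR adjusted p = 0.00321), and kept its call in all 13 alternatives. Slit1 (ENSMUSG00000025020), at 119.4, 99.2 and 121.3 CPM in wild-type libraries and 137.6, 142.5 and 160.8 CPM in double knockout libraries, also had no overlap. Its log2 fold change of 0.38 ± 0.0883 (SE) did not pass, with an edgeR adjusted p of 0.0720. It did pass with DESeq2, at an adjusted p of 0.00383. In edgeR it passed with total count scaling (0.0419), no filter (0.00935) or a replicate block (0.0296). Slit3 had few reads, between 264 and 513 per library, and its log2 fold change was -0.19 ± 0.269 (SE). Summed over the 3 genes, Slit reads were at 144.9 to 174.7 CPM in wild-type libraries and 226.5 to 241.0 CPM in double knockout libraries. In these libraries the ligand sum was thus higher while the sum of the receptors was lower.

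**Figure D2:**
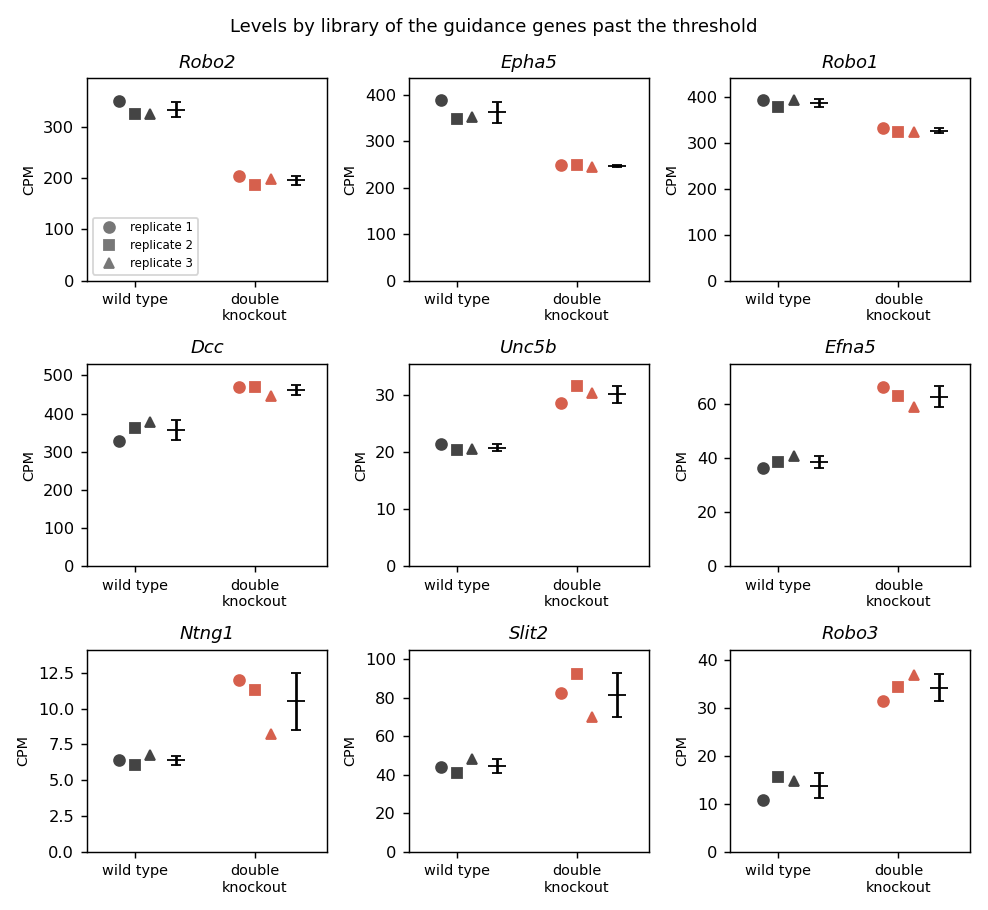
CPM of the 9 called guidance genes in each of the 6 libraries, with the mean and SD of each genotype beside the points (n = 3) and symbols for the replicate number. In every panel the genotypes are separate, and Ntng1 comes closest to overlap in CPM, with a highest wild-type library at 6.73 CPM and double knockout replicate 3 at 8.20 CPM.

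For the netrin receptors, 2 of 5 genes were called, both higher. Dcc (ENSMUSG00000060534), the attractive netrin receptor, was at 327.2, 360.9 and 378.7 CPM in wild-type libraries and 468.2, 469.2 and 446.3 CPM in double knockout libraries. Its libraries did not overlap, and Dcc rose 1.30-fold, with a log2 fold change of 0.38 ± 0.0657 (SE, edgeR adjusted p = 0.0213). The call was lost in edgeR without wild-type replicate 1 (0.0876) or 2 (0.0745) and without double knockout replicate 1 (0.0769) or 2 (0.0897), with log2 fold changes of 0.32 to 0.42 over all 13 alternatives. Unc5b (ENSMUSG00000020099), a repulsive netrin receptor best known from blood vessels, was at 21.5, 20.4 and 20.6 CPM in wild-type libraries and 28.6, 31.6 and 30.4 CPM in double knockout libraries. The replicates of Unc5b lay close together in both genotypes. It rose 1.45-fold, with a log2 fold change of 0.54 ± 0.0675 (SE, edgeR adjusted p = 0.00409), and was called in all 13 alternatives.

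The other UNC5 receptor genes did not pass. Unc5c was at 22.5, 17.9 and 17.8 CPM in wild-type libraries and 31.7, 30.8 and 19.3 CPM in double knockout libraries, with a log2 fold change of 0.49 ± 0.184 (SE, edgeR adjusted p = 0.281). Double knockout replicate 3 lay within the wild-type range. Without that library Unc5c was called, at 0.70 with an edgeR adjusted p of 0.0113. Unc5d was at 48.6 ± 6.55 CPM in wild-type libraries and 37.8 ± 7.14 CPM in double knockout libraries (SD, n = 3 each), with an edgeR adjusted p of 0.321. Unc5a was at 24.9 and 24.8 CPM, and its log2 fold change was -0.01 ± 0.172 (SE). Within each library, Unc5d gave 41.5% to 43.3% of all UNC5 reads in wild-type and 30.5% to 33.0% in double knockout libraries, and Unc5b gave 16.7% to 19.8% and 21.7% to 31.2%. Unc5c gave 16.2% to 17.5% and 19.7% to 24.1%. None of these 3 shares overlapped between the genotypes.

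With TMM scaling, the standard filter and no replicate block, none of the 3 tested netrin genes was called in edgeR. Of these genes 2 had an unadjusted p under 0.05, and both of those, Ntn1 and Ntn4, were called higher by DESeq2. Ntn1 (ENSMUSG00000020902), the diffusible ligand of DCC and UNC5, was at 108.6, 119.3 and 116.9 CPM in wild-type libraries and 132.7, 136.2 and 161.5 CPM in double knockout libraries. Its libraries did not overlap. The log2 fold change was 0.32 ± 0.0788 (SE), and the adjusted p was 0.0848 in edgeR and 0.0105 in DESeq2. In edgeR Ntn1 passed with total count scaling (0.0393), with no filter (0.0182) and with a replicate block (0.0433). Ntn4, a netrin of basement membranes, was at 28.5 ± 2.52 and 36.4 ± 4.60 CPM (SD, n = 3 each), where the log2 fold change was 0.35 ± 0.103 (SE) and the adjusted p 0.153 in edgeR and 0.0310 in DESeq2. Ntn3 was at 15.8 and 14.4 CPM, with a log2 fold change of -0.13. Ntn5 was the gene that the filter removed. It had 3, 5 and 0 reads in the wild type and 1, 0 and 0 in the double knockout, too few to compare.

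The netrin-G genes encode membrane-anchored relatives of the netrins that bind NGL adhesion proteins and not DCC. Ntng1 (ENSMUSG00000059857) had 374, 391 and 432 reads in wild-type libraries and 778, 653 and 569 reads in double knockout libraries, or 6.40 ± 0.326 and 10.5 ± 2.02 CPM (SD, n = 3 each). It was higher in every double knockout library, and rose 1.64-fold with a log2 fold change of 0.71 ± 0.146 (SE, edgeR adjusted p = 0.0413). Its call was lost in 7 of 13 alternatives. In edgeR the adjusted p was 0.158, 0.150 and 0.111 without wild-type replicates 1, 2 and 3, 0.137 and 0.143 without double knockout replicates 1 and 2, and 0.0797 with the Y-linked covariate. Ntng2 was at 40.4, 35.4 and 38.8 CPM in wild-type libraries and 30.7, 33.1 and 23.9 CPM in double knockout libraries, with a log2 fold change of -0.39 ± 0.117 (SE). Its libraries did not overlap, but it was not called in edgeR (adjusted p 0.166) and was called lower in DESeq2 (adjusted p 0.0397). Its exons share 14.0% of their length with another gene on the same strand in GENCODE M21, so its count is uncertain. Reads of Ntng1 per 100 of Ntng2 were 15.8 to 17.3 in wild-type and 34.2 to 39.1 in double knockout libraries. The Ntng1 promoter match begins 37 bases after the start, and 30 bases around it (GRCm38.p6, chr3:110143423-110143452, minus strand) are shown with the motif in capitals.
Ntng1: ttcttggcgccaaggcTAATTGtcctgatt

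Of the 9 EphA receptor genes, 1 was called, and it was lower. Epha5 (ENSMUSG00000029245), a receptor of neurons that respond to ephrin-A proteins, was at 388.7, 347.9 and 351.9 CPM in wild-type libraries and 248.1, 248.8 and 244.3 CPM in double knockout libraries. The 3 double knockout libraries were close to each other and far below the wild type. Epha5 fell to 68.1% of the mean of its wild-type libraries, a log2 fold change of -0.55 ± 0.0578 (SE, edgeR adjusted p = 0.00156), and was called in all 13 alternatives. It gave 32.2% to 35.3% of all EphA reads in wild-type and 25.0% to 27.3% in double knockout libraries. Summed EphA reads were at 1050 to 1102 CPM in wild-type libraries and 908.3 to 978.5 CPM in double knockout libraries. The 250 bases before the Epha5 start (GRCm38.p6, chr5:84417383-84417632, minus strand) are shown because its TAATTA match, in capitals, begins 230 bases before the start of the only EphA gene past the threshold.
Epha5: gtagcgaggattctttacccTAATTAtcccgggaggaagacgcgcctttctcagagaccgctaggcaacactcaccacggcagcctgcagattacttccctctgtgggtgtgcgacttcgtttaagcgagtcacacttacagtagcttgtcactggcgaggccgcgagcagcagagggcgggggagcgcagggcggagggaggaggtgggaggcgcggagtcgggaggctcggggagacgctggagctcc

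Epha4, which can bind ephrins of both classes and had the highest level of the EphA genes per length, was at 369.7, 383.5 and 374.0 CPM in wild-type libraries and 333.5, 342.0 and 439.5 CPM in double knockout libraries. The double knockout libraries fell on both sides of the wild type, with replicate 3 highest, and the log2 fold change was -0.02 ± 0.101 (SE). Epha3, another receptor of ephrin-A proteins, was at 264.5 ± 11.9 and 240.6 ± 12.4 CPM (SD, n = 3 each), with a log2 fold change of -0.14 and an edgeR adjusted p of 0.360. Epha7 was at 61.4, 56.4 and 55.7 CPM in wild-type libraries and 70.1, 70.5 and 53.9 CPM in double knockout libraries, and was called only without double knockout replicate 3, at 0.29 with an edgeR adjusted p of 0.0282. Epha1, Epha2, Epha6, Epha8 and Epha10 had wild-type means of 0.912 to 6.14 CPM and log2 fold changes from -0.38 to 0.43, none called. Of these, Epha8 was without overlap, lower in the double knockout.

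No EphB receptor gene was called in edgeR with the same settings, but 4 of the 5 had an unadjusted p under 0.05 (13.3% of all tested genes did) and libraries without overlap, all higher in the double knockout, and DESeq2 called 1 of them, Ephb2. Ephb2 (ENSMUSG00000028664) was at 237.6, 213.6 and 249.0 CPM in wild-type libraries and 287.0, 277.6 and 281.5 CPM in double knockout libraries. Its log2 fold change was 0.27 ± 0.0633 (SE), and the adjusted p was 0.0676 in edgeR and 0.00635 in DESeq2. In edgeR it passed with total count scaling (0.0419) and with no filter (0.0189). Ephb1, Ephb3 and Ephb4, the last known from venous endothelium, had log2 fold changes of 0.13, 0.24 and 0.28 with edgeR adjusted p of 0.231, 0.164 and 0.208. The exception was Ephb6, a receptor without kinase activity, at 23.4 and 22.9 CPM. EphB reads summed to 403.3 to 444.3 CPM in wild-type libraries and 486.3 to 504.4 CPM in double knockout libraries, so the EphA and EphB sums differed in opposite directions without overlap. The EphA difference was mostly that of Epha5. The mean EphA sum went from 1077 to 939.4 CPM, and Epha5 alone from 362.8 to 247.1 CPM. Log2 fold changes were above 0 for 4 of 9 EphA and 4 of 5 EphB genes.

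The ephrin-A genes held 1 call out of 5. Efna5 (ENSMUSG00000048915), which repels EphA-bearing axons and forms gradients in the embryonic forebrain, was at 36.3, 38.5 and 40.7 CPM in wild-type libraries and 66.3, 63.2 and 58.9 CPM in double knockout libraries. Its libraries were far apart, and it rose 1.63-fold, with a log2 fold change of 0.71 ± 0.0668 (SE, edgeR adjusted p = 9.41e-04), and was called in all 13 alternatives. Efna2, with the highest level of the ephrin-A genes per length, was at 50.9, 57.9 and 59.9 CPM in wild-type libraries and 46.5, 48.3 and 56.7 CPM in double knockout libraries, with overlap and a log2 fold change of -0.15 ± 0.0903 (SE). Reads of Efna5 per 100 of Efna2 were 66.4 to 71.4 in wild-type and 103.8 to 142.5 in double knockout libraries. Efna3 was at 12.7 ± 0.981 and 9.90 ± 1.51 CPM (SD, n = 3 each), without overlap and with an edgeR adjusted p of 0.234. Efna1 and Efna4 had log2 fold changes of -0.07 and -0.06. Efna1, Efna3 and Efna4 are neighbours on chromosome 3 with no other protein-coding gene between them, and none of them was called.

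No ephrin-B gene was called in edgeR or in DESeq2, and 1 of the 3 had an unadjusted p under 0.05. That gene was Efnb2, the ephrin of arterial endothelium and of many neural progenitors, at 336.3, 363.8 and 347.6 CPM in wild-type libraries and 314.8, 296.0 and 315.5 CPM in double knockout libraries. It was without overlap, with a log2 fold change of -0.18 ± 0.0553 (SE, edgeR adjusted p = 0.181). Efnb1, which is X-linked, was at 186.2, 198.0 and 213.5 CPM in wild-type libraries and 191.5, 180.0 and 215.3 CPM in double knockout libraries, with a log2 fold change of -0.03 ± 0.0771 (SE). Efnb3 was at 171.0 ± 14.9 and 175.9 ± 22.6 CPM (SD, n = 3 each). The ephrin-B sum of 699.4 to 743.2 CPM in wild-type libraries and 664.9 to 695.4 CPM in double knockout libraries had no overlap either.

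To compare genes with each other, CPM was divided by the summed length of each gene's exons in GENCODE M21. On that scale the ephrin-B genes led in the wild type, with Efnb1 at 57.7 ± 3.96, Efnb3 at 53.7 ± 4.68 and Efnb2 at 50.9 ± 2.02 CPM per kb (SD, n = 3 each). Each of these differed from the next by less than the SD of Efnb3. Epha4 followed at 46.6 ± 0.875 CPM per kb, and then came Epha3, Dcc, Efna2, Robo1, Epha5 and Robo2 at 30.4 to 19.6 CPM per kb. At the other end were Epha1 and Epha10, at 0.234 and 0.127 CPM per kb, and the tested genes spanned 455.9-fold. Across the 39 genes the levels of the 2 genotypes ranked alike, with a Spearman's rho of 0.974, given as a description. The largest moves in rank among the 40 genes were those of Robo3, from 28 to 22, and of Epha5 and Robo2, from 9 to 14 and from 10 to 15. The order depends on the gene models. Slit2 has 25433 bases of annotated exon but a longest coding transcript of 9960 bases, and its wild-type level was 1.75 CPM per kb by the first length and 4.46 by the second. With the coding transcript length, an alternative added after seeing the data, Efnb2 ranked first at 72.9 CPM per kb and Efnb1 next at 61.2. Epha4, at 59.4 CPM per kb, then ranked above Efnb3, at 53.7.

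**Figure D3:**
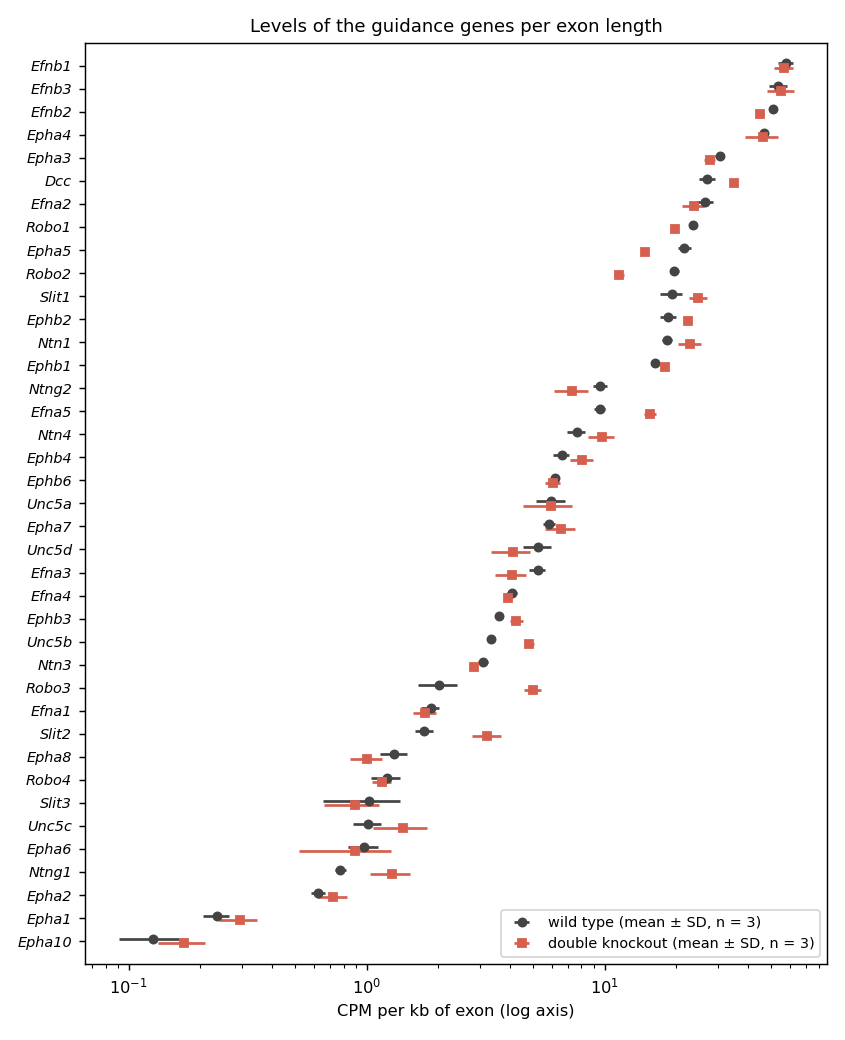
CPM per kb of exon for the 39 tested guidance genes on a log axis, mean and SD of 3 libraries per genotype, ordered by the wild-type level. Efnb1 is at the top at 57.7 CPM per kb in the wild type and Epha10 at the bottom at 0.127, and the shifts of Robo2, Robo3, Epha5, Efna5 and Slit2 are wider than their error bars.

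The spread between replicates was uneven across the family. Double knockout replicate 3 was the lowest of its genotype for 19 of 39 guidance genes (48.7%) and the highest for 16 (41.0%). Over all genes that reached 1 CPM on average, as these 39 did, it was lowest for 36.5% and highest for 44.0%, and over all tested genes for 38.9% and 37.8%. Epha6 deviated most there, at 2.47 CPM beside 5.70 and 6.07 CPM in the other double knockout libraries. Unc5a, Unc5c, Unc5d, Slit3, Ntng1, Ntng2, Efna3 and Epha7 were also lowest in this library, whereas Epha4, Ntn1, Ntn4, Efna2, Ephb4 and Robo3 were highest in it. The Dlx1 and Dlx2 reads left in the double knockout were also highest there, at 94.0 and 11.0 CPM, against 74.9 to 75.8 and 7.50 to 7.56 CPM in the other two. Without this library 8 guidance genes were called higher and 3 lower in edgeR, the added genes being Epha7 and Unc5c. In the wild type, Slit3 was at 8.75 CPM in replicate 1 and 4.81 and 5.05 CPM in the others.

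**Figure D4:**
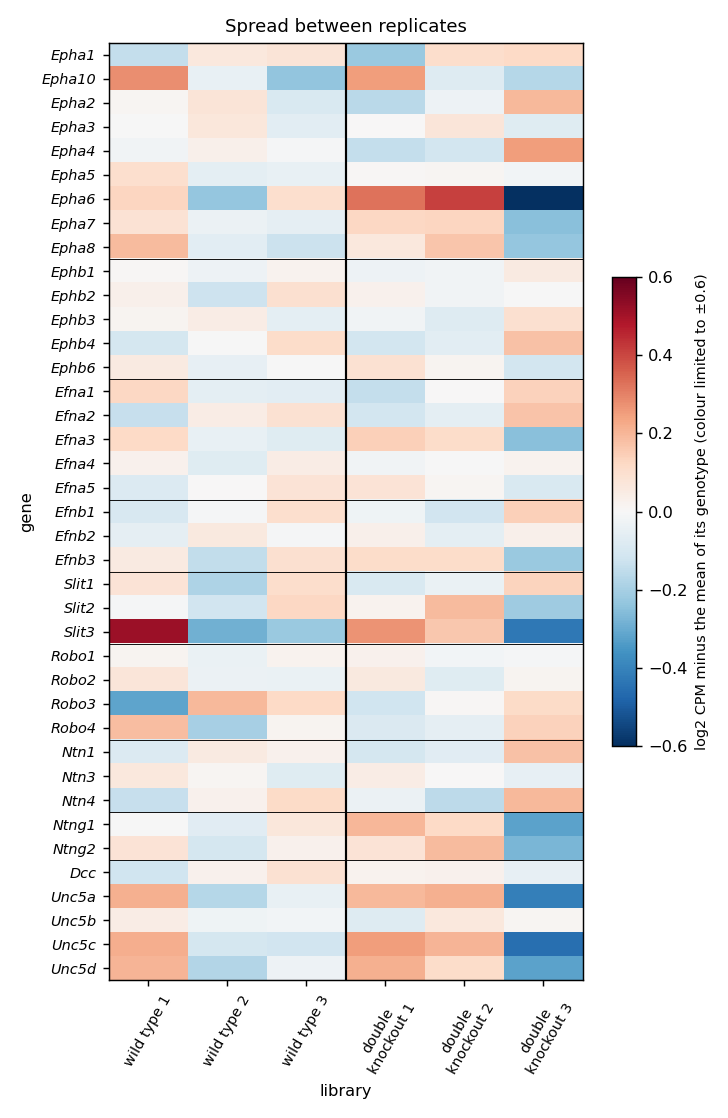
Deviation of each library's log2 CPM from the mean of its genotype for the 39 tested guidance genes, in 6 library columns with families separated by lines and the colour scale limited at 0.6. The column of double knockout replicate 3 holds the strongest colours, with Epha6 at -0.74 and Unc5c at -0.45, and Slit3 stands out in wild-type replicate 1 at 0.51.

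The directions of the 9 calls were also read within the libraries that shared an Xist or Y-linked pattern, without a test, because each pattern has a single library in 1 genotype. All 9 kept their sign in both. For Robo3 the log2 difference was 1.04 within the high-Xist libraries and 1.72 within the Y-linked ones, for Robo2 it was -0.68 and -0.87, for Slit2 0.89 and 0.88, and for Efna5 0.74 and 0.75. None of the 9 called genes shares exons with another gene in GENCODE M21, whereas 12 of the 40 guidance genes do. These are Epha1, Epha6, Epha10, Ephb1, Ephb4, Efna3, Efna4, Ntn3, Ntn5, Ntng2, Unc5a and Unc5c, whose counts are less certain. Most of these overlaps are with a gene on the opposite strand, and the strand setting of the counting was not given in the sources used here. Ntng2 and Ntn3 share exons with a gene on the same strand, where the strand setting would not separate the reads, and Ntn3 also with one on the opposite strand.

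Other genes of these pathways were read from a list of 64 that covered alternative ligands and receptors, proteases and coreceptors, and cytoplasmic effectors, all of which were tested. In edgeR 6 were called lower (9.38%, against 1.34% of all tested genes and 2.16% of those above a mean of 10 CPM) and 0 higher. At an unadjusted p under 0.05 there were 19 lower and 4 higher, where 13.3% of all tested genes had such a p (1608 lower and 1541 higher of 23628). DESeq2 called 8 of the 64 lower and 1, Dock1, higher, beside 570 lower and 592 higher of all 23628 tested genes. The median log2 fold change of the list was -0.057. Flrt2, whose protein binds UNC5 receptors and repels cells that carry them, was at 176.8, 168.7 and 160.0 CPM in wild-type libraries and 83.0, 86.2 and 94.6 CPM in double knockout libraries. Flrt2 fell with a log2 fold change of -0.94 ± 0.0630 (SE, edgeR adjusted p = 1.40e-04). Grip1, a scaffold that binds the tails of ephrin-B and other membrane proteins, fell from 62.4 ± 1.40 to 46.1 ± 2.34 CPM, with an edgeR adjusted p of 0.00447. These 2 calls held in all 13 alternatives.

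The other called partners were Dscaml1, a relative of the netrin-binding adhesion gene Dscam, Rgmb, whose protein binds neogenin, Chn2, a Rac inhibitor of the chimaerin family, and Srgap2, a GTPase-activating protein of the Slit-Robo pathway. Their log2 fold changes were -0.59, -0.43, -0.37 and -0.29, with edgeR adjusted p of 0.0384, 0.0442, 0.0259 and 0.0323. None held its call with the Y-linked covariate, where the edgeR adjusted p was 0.108, 0.118, 0.0853 and 0.0758 in the same order. In edgeR, total count scaling lost Dscaml1 (0.0668), Rgmb (0.0881) and Srgap2 (0.0519), and a filter at 1 CPM lost Dscaml1 (0.0565) and Rgmb (0.0658). Each also lost its call when certain single libraries were left out. The edgeR adjusted p was then 0.0989 to 0.151 for Dscaml1 (each wild-type library or double knockout replicate 2), 0.110 to 0.177 for Rgmb and 0.0632 to 0.119 for Chn2 (each wild-type library or double knockout replicate 1, for both), and 0.0971 to 0.157 for Srgap2 (replicates 1 and 3 of the wild type, 1 and 2 of the double knockout). The 9 proteases, coreceptors and heparan sulfate genes held no call in edgeR or DESeq2, with 2 at an unadjusted p under 0.05, beside the 13.3% of all tested genes. Among the 42 effectors, 3 were called lower, and among the 13 alternative ligands and receptors, 3 were.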

How the data were processed

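The authors deposited whole-number counts per gene for 6 libraries, 3 per genotype. Counting with featureCounts and the mouse build GRCm39 are named per the submitters' processing notes, whereas the aligner, the annotation release and the strand setting are not given in the sources used here. Genes with enough counts (edgeR's filterByExpr, a minimum count of 10 and a minimum total of 15) were scaled by TMM and tested with edgeR's quasi-likelihood test (edgeR 4.0.16, limma 3.58.1, R 4.3.3). P-values were adjusted by Benjamini and Hochberg over all 23628 genes tested, with a threshold of 0.05, and DESeq2 1.42.0 was an alternative. Log2 fold changes are edgeR's, and each standard error is that value divided by the square root of its F statistic. The procedure was tested on simulated data. There the share of false calls was above the threshold of 0.05, and log2 changes of -1 and 1 were often missed.

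The guidance genes, the 64 partner genes and the marker lists were chosen with earlier results of these data known. Every guidance gene was accounted for, with library values for those past the threshold and for the one of the highest wild-type level in each family, and of the partners those past the threshold were named. The alternatives were other scalings, DESeq2, other filters, a replicate block, a Y-linked covariate and the removal of each library. Exon lengths and overlaps came from GENCODE M21 by Ensembl ID and promoters from RefSeq (GRCm38.p6), an older build than that of the counts, and were matched by gene and not by position.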

Additional observations from a re-analysis of the deposited data

How the results depend on the processing

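Of 507 log2 fold changes of guidance genes under the 13 alternatives, 453 kept their direction and side of the threshold, 19 lost a call (Robo1, Dcc and Ntng1), 15 gained one and 20 changed sign, the last all in genes that were never called. Over all tested genes 634 were called, against 1162 with DESeq2, 358 with the Y-linked covariate and 309 to 749 with 1 library left out (309 without wild-type replicate 1, 749 without double knockout replicate 3). Total count scaling called 390 genes higher and 256 lower, against 317 and 317, and moved the median of all genes from -0.002 to 0.027. Of the guidance genes, 6 higher and 3 lower became 10 and 4 with DESeq2, 9 and 2 with total count scaling, 9 and 3 with no filter, 5 and 2 with the Y-linked covariate, and 4 to 8 higher and 2 to 3 lower with 1 library left out. Of the partner genes, 1 was higher with total count scaling, with DESeq2, with no filter and with a filter at 1 CPM, and 0 to 1 with 1 library left out. Partner genes called lower numbered 3 with total count scaling, 2 with the Y-linked covariate and 2 to 6 with 1 library left out. The cause was not tested.

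Signs turned for Efnb1 (0.0015), Epha4 (0.0105) and Unc5a (0.0215) with total count scaling, and for Unc5a with no filter (0.0003) or a filter at a mean of 1 CPM (0.0033). With 1 library left out, log2 fold changes ranged from -0.1524 to 0.0046 for Efna1, -0.0946 to 0.0299 for Efnb1, -0.0293 to 0.1506 for Efnb3, -0.1474 to 0.0567 for Epha4, -0.3394 to 0.1970 for Epha6, -0.0815 to 0.0295 for Ephb6, -0.1672 to 0.0369 for Robo4, -0.3462 to 0.1374 for Slit3 and -0.1156 to 0.1785 for Unc5a. The positive values of Epha6 and Ephb6 arose without double knockout replicate 3, and that of Robo4 without wild-type replicate 1. Those of Slit3 and Unc5a arose without either of these libraries.

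The labels do not say whether same-numbered libraries were paired. Deviations of same-numbered libraries correlated at -0.0629, -0.00129 and 0.0350 across all tested genes. Across the 39 guidance genes they correlated at 0.645, -0.525 and 0.278, where differently numbered libraries ranged from -0.601 to 0.627. With deviations taken from means of 3 libraries, such values cannot decide whether samples were paired. With the replicate block 690 genes were called, 7 guidance genes higher and 2 lower, and 0 partner genes higher and 6 lower. Robo1 (edgeR adjusted p 0.0689) and Ntng1 (0.0561) lost their calls in it, and Slit1 (0.0296) and Ntn1 (0.0433) gained one. Dlx1 was at -2.43 and Dlx2 at -5.11 with the block. At 3 libraries per genotype and a common biological coefficient of variation of 13.4%, Ntn5 had too few reads to test, and the largest standard error of the tested guidance genes was that of Epha6 (0.299).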
